A study of Mus musculus with 4 samples.

Results

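Glycolysis enzymes and glucose transporters are described here by 10 genes, taken as the rows of the deposited RefSeq table with a listed symbol: the transporter genes Slc2a1 and Slc2a3, and the enzyme genes Hk1, Hk2, Pfkp, Aldoa, Pgk1, Ldha, Ldhb and Pdk1. All 10 had reads, out of 19797 gene symbols in that table, and all 10 had a mean FPKM of at least 1 and entered the test. RNA was sequenced from sorted MC1-ZE7 cells, a mouse embryonic stem (ES) cell line of strain MC1 (129S6/SvEvTac) in which fluorescent Emerald reports Zscan4, a gene cluster active in the 2-cell embryo and in a small fraction of ES cells. The groups were 2 libraries of Emerald-positive (Em+, the high fraction) and 2 of Emerald-negative (Em-) cells. Both fractions came from the same reporter line, grown without feeders on gelatin in serum and leukemia inhibitory factor, with pyruvate added to the medium, and differed by the sort gate. The labels name no separate cultures or sorts for the libraries of a fraction, so a p-value here speaks for the spread of these 4 libraries, and that spread may be technical. The comparison asks how transcripts of this pathway differ with the state of the Zscan4 reporter.

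Glucose enters cells through facilitative transporters, is phosphorylated by hexokinases so that it cannot leave, and is split and oxidised to pyruvate. Lactate dehydrogenase then interconverts pyruvate and lactate, while pyruvate dehydrogenase, which pyruvate dehydrogenase kinases inhibit, passes pyruvate to the mitochondria. Pluripotent cells are known for high glycolytic flux, and several genes of the pathway are known targets of the hypoxia-inducible factor HIF-1, whose core DNA motif is ACGTG or GCGTG.

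The RefSeq table held 16468218 to 18953217 counts per library. Em+ replicate 2 stood apart: 43.4% of its reads lay in the table, against 49.0% in Em+ replicate 1 and 50.7 to 51.1% in the Em- libraries. Rn45s, a model of ribosomal RNA precursor, took 7.95% of its counts and 3.93 to 4.33% in the other libraries. The title and cell type field name the same fraction in every library and the description field names the opposite one. Zscan4d had 1671 and 1418 counts in the libraries titled Em+, against 23 and 25 counts in those titled Em-. The 11 listed markers of the 2-cell-like state, Zscan4 genes among them, summed to 311 and 330 CPM (counts scaled to the library's total and by TMM) in the libraries titled Em+, against 2.20 and 3.37 CPM in those titled Em-, which goes with the titles. The 8 ES cell markers summed to 4468 and 4037 CPM in the Em+ libraries, against 4634 and 4563 CPM in the Em- libraries. Nanog was the only one of them called, and it rose (log2 fold change 0.48, edgeR adjusted p = 0.0192). Of 7 fibroblast markers 3 had reads, Thy1, Col1a1 and Col1a2, with sums of 24.0 and 23.8 CPM in Em+ cells and 12.1 and 13.1 CPM in Em- cells. Thy1 made up most of this and rose (edgeR adjusted p = 0.00386), while Dcn, Lum, Col3a1 and Postn had no row. The part of these differences in the results below was not tested. In sorted bulk samples, fewer cells of a type and less RNA per cell cannot be told apart.

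The RefSeq promoter table (build GRCm38.p6) held entries for 9 of the 10 genes. The 250 bases before the start are shown for Ldhb, the gene whose change passed the test, for Pgk1 and Pdk1, the next lowest adjusted p values, and for Slc2a1, which lay on the other side of 0. They are written 5′ to 3′ on the strand of the gene, with ACGTG or GCGTG, or its reverse complement, in capitals.
Ldhb (chr6:142507958-142508207, - strand): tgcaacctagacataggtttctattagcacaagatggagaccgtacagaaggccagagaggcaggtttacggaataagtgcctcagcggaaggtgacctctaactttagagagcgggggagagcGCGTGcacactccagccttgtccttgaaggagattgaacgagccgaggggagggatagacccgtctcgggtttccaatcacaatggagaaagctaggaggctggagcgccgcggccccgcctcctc
Pgk1 (chrX:106186850-106187099, + strand): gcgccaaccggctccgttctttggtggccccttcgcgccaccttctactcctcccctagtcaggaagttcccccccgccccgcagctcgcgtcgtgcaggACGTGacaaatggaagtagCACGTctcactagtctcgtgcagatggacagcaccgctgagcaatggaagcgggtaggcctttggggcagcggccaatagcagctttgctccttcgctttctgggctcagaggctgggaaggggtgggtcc
Pdk1 (chr2:71872974-71873223, + strand): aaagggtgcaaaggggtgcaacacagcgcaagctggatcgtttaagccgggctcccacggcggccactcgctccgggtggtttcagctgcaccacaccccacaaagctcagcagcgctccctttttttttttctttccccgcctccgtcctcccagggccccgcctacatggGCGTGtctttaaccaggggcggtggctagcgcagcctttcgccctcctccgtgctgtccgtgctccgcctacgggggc
Slc2a1 (chr4:119108495-119108744, + strand): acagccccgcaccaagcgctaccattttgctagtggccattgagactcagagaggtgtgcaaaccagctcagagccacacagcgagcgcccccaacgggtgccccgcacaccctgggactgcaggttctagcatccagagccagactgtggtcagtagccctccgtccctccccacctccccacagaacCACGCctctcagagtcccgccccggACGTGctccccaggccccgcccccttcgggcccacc
On either strand, the Ldhb and Pdk1 windows held 1 such match each and the Pgk1 and Slc2a1 windows 2 each. Over all starts listed for the 9 genes, 11 of 14 windows held at least 1 match, against 38.6% of 32851 windows in the whole table. Among the 11, 2 Aldoa windows overlap and hold the same single match. The windows nearest to the most counted transcript of each of the 9 genes were 54.4 to 69.6% G and C, where the median of all windows was 52.4%, and the part of base composition in the matches was not tested. CACGTG, the E-box sequence bound by Myc proteins, which overlaps ACGTG, was in 1 of the 14 windows, a start of Ldha other than that of its most counted transcript, against 6.02% of all windows. A match is a description of these letters and not of a bound site.

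Levels of the 10 genes differed by small amounts between the fractions, and most were lower in Em+ cells. Ldhb was the only member that passed the test, and it fell by 0.36 on the log2 scale in Em+ cells (quasi-likelihood test of edgeR, Benjamini-Hochberg adjustment over 12050 genes, adjusted p = 0.0228). That is 1 member of 10, beside a background of 4.64% of all genes tested called in either direction, 3.82% called higher and 0.822% called lower. The log2 fold change was below 0 for 8 members, beside 49.3% of all genes tested, and above 0 for Slc2a1 and Slc2a3. Among the 2469 genes with a mean of at least 100 CPM, which include every member, 58.2% lay below 0. The median of the members was −0.18, where that of all genes tested was 0.00 and that of those 2469 genes was −0.03. The groups did not overlap for 9 members, 8 of them lower in Em+ cells, which 59.4% of all genes tested showed in either direction and 29.7% showed in the lower direction. At an unadjusted p under 0.05 there were 6 members, 5 of them lower, against 25.3% of all genes in either direction and 10.7% in the lower one. Together the 10 genes took 0.765% (replicate 1) and 0.645% (replicate 2) of the counts of tested genes in the Em+ fraction, against 0.764% and 0.773% in the Em- fraction.

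**Figure D1:**
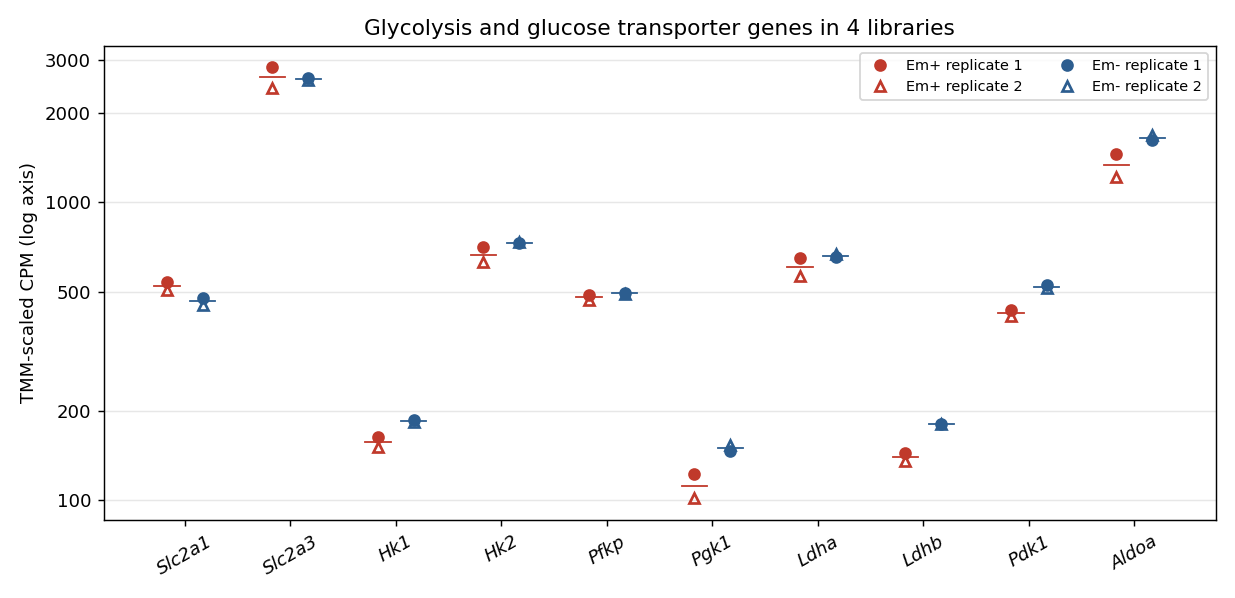
TMM-scaled CPM (log axis) of each of the 10 genes in every library, with Em+ values left of Em- values, circles for replicate 1, triangles for replicate 2 and a line at the mean of each group. Only Slc2a3 has overlapping groups, and Em+ replicate 2 lies below Em+ replicate 1 for every gene shown.

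The glucose transporter genes did not pass the test. Slc2a1 (chromosome 4, 119108745 to 119137329, build mm10) encodes GLUT1, the widely expressed transporter that supplies basal glucose. It had 542 and 510 CPM in Em+ cells, against 478 and 452 CPM in Em- cells, so both Em+ libraries lay above both Em- libraries. Its log2 fold change was 0.18 (SE 0.07, 95% interval 0.01 to 0.35, edgeR adjusted p = 0.184). The value was 0.02 in the Ensembl table and 0.01 in the ENCODE table, where the gene held 23.4% of its RefSeq counts. On log2(FPKM + 1) it was 0.01, where the median of all genes was −0.14. It was called higher without Em+ replicate 1 (0.13, edgeR adjusted p = 0.0222) and without Em+ replicate 2 (0.22, edgeR adjusted p = 0.00547). Slc2a3 (chromosome 6, 122727809 to 122742745) encodes GLUT3, a high-affinity transporter known from neurons and early embryos. It had 2838 and 2415 CPM in Em+ cells and 2616 and 2582 CPM in Em- cells. The Em- values lay between those of the Em+ libraries, with a log2 fold change of 0.02 (SE 0.12, 95% interval −0.26 to 0.29, edgeR adjusted p = 0.949). Its sign turned on the library left out, at −0.11 without Em+ replicate 1 (edgeR adjusted p = 0.0215) and 0.13 without Em+ replicate 2 (edgeR adjusted p = 0.0245), and it was also below 0 on deposited FPKM (−0.15, where the median of all genes was −0.14) and with weaker filters on low values (−0.02 and −0.04).

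Hexokinases catalyse the phosphorylation of glucose, the first step of glycolysis. Hk1 (chromosome 10, 62268855 to 62379908), the broadly expressed form, had 163 and 151 CPM in Em+ cells and 187 and 182 CPM in Em- cells. The groups did not overlap, and the log2 fold change of −0.23 (SE 0.07, 95% interval −0.39 to −0.08) did not pass (edgeR adjusted p = 0.0928). Hk2 (chromosome 6, 82725027 to 82774454), the form known to be induced in rapidly growing cells, had 708 and 629 CPM in Em+ cells and 729 and 735 CPM in Em- cells. Both Em+ libraries were lower, and its log2 fold change was −0.13 (SE 0.08, 95% interval −0.33 to 0.06, edgeR adjusted p = 0.358). Over 17 alternatives the value ran from −0.40 to −0.18 for Hk1 and from −0.30 to −0.05 for Hk2.

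Pfkp (chromosome 13, 6579874 to 6648771), the platelet-type subunit of phosphofructokinase, which makes fructose 1,6-bisphosphate, had the smallest difference among the enzymes. It had 490 and 472 CPM in Em+ cells and 498 and 492 CPM in Em- cells. The Em+ libraries were lower by a narrow margin, with a log2 fold change of −0.04 (SE 0.07, 95% interval −0.20 to 0.12, edgeR adjusted p = 0.732), and it was not called under any of 17 alternatives. Aldoa (chromosome 7, 126795234 to 126800447), the aldolase that splits that sugar, had 1457 and 1221 CPM in Em+ cells and 1615 and 1680 CPM in Em- cells. The Em+ libraries were both lower and lay far apart, and the log2 fold change of −0.30 (SE 0.11, 95% interval −0.56 to −0.04) did not pass (edgeR adjusted p = 0.153). Leaving out Em+ replicate 1 gave −0.43 and leaving out Em+ replicate 2 gave −0.18.

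Pgk1 (chromosome X, 106187100 to 106203699) encodes phosphoglycerate kinase, the first step of glycolysis that makes ATP, and had the lowest log2 fold change of the 10 genes. It had 123 and 102 CPM in Em+ cells, against 147 and 153 CPM in Em- cells. Both Em+ libraries were lower, and the log2 fold change of −0.42 (SE 0.09, 95% interval −0.64 to −0.20) lay just outside the threshold (edgeR adjusted p = 0.0519). DESeq2 called it (adjusted p = 0.00975), and so did edgeR without TMM scaling and under both weaker filters. Limma on log2(FPKM + 1) did not call it.

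The subunits of lactate dehydrogenase differed in how far they lay from 0. Ldha (chromosome 7, 46845804 to 46855627), the muscle-type subunit favoured in glycolytic tissues, had 650 and 565 CPM in Em+ cells and 654 and 669 CPM in Em- cells. Em+ replicate 1 was close to the Em- libraries, and the log2 fold change was −0.12 (SE 0.09, 95% interval −0.33 to 0.08, edgeR adjusted p = 0.410). Ldhb (chromosome 6, 142490249 to 142507943), the heart-type subunit, had 144 and 135 CPM in Em+ cells, against 180 CPM in each Em- library (179.6 and 179.7). It averaged 140 ± 6.23 CPM in the Em+ libraries, against 180 ± 0.0942 CPM in the Em- libraries (SD, n = 2 each), with an SE of 0.06 and a 95% interval of −0.51 to −0.21 on the log2 fold change. The call was lost without Em- replicate 1 (edgeR adjusted p = 0.189) and without Em- replicate 2 (0.164), although the value stayed at −0.37 and −0.36. Limma on log2(FPKM + 1) did not call it, and edgeR called it in each of the RefSeq, known-gene, Ensembl and ENCODE tables. The RefSeq and known-gene tables held the same Ldhb counts in every library, as did the Ensembl and ENCODE tables. Calls in these tables are therefore not separate checks.

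Pdk1 (chromosome 2, 71873224 to 71903858) encodes a kinase that inhibits pyruvate dehydrogenase. It had 437 and 414 CPM in Em+ cells, against 527 and 515 CPM in Em- cells, and the groups lay clearly apart. The log2 fold change of −0.29 (SE 0.07, 95% interval −0.45 to −0.13) did not pass (edgeR adjusted p = 0.0583). DESeq2 called it (adjusted p = 0.0289), as did edgeR under both weaker filters. Limma on log2(FPKM + 1) did not call it. Of its relatives, Pdk2 stood at 0.26 on the log2 scale, Pdk3 at 0.14 and Pdk4 at 0.09, and none of these passed (edgeR adjusted p = 0.312, 0.353 and 0.571).

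Em+ replicate 2 lay below Em+ replicate 1 for all 10 genes, by 3.69% (Pfkp) to 17.1% (Pgk1) of the CPM of replicate 1. Over all genes tested 51.4% lay below, and 60.9% of the genes with at least 100 CPM. Em- replicate 2 differed from Em- replicate 1 by between −5.37% (Slc2a1) and 4.03% (Pgk1). Without Em+ replicate 1, 9 members were called, 1 higher and 8 lower, beside 41.4% of all genes (19.5% lower). Without Em+ replicate 2, 7 members were called, 2 higher and 5 lower, beside 16.3% of all genes (6.9% lower). Without Em- replicate 1 or 2 edgeR called 0 members, with 2 at an unadjusted p under 0.05 in each fit, beside 4.07% and 4.87% of all genes called. The 8 enzyme genes had a log2 fold change below 0 and Slc2a1 one above 0 in each of these 4 fits. A fit that leaves a group with 1 library takes its spread from the other group. The other alternatives that kept all 4 libraries called between 0 and 3 members. DESeq2 called Pgk1, Ldhb and Pdk1, beside 5.63% of all genes, and edgeR called the same 3 with filterByExpr (7.86% of all genes) and with no filter on low values (5.95%). Without TMM scaling it called Pgk1 and Ldhb, beside 6.46% of all genes. Limma on log2(FPKM + 1) and log2(FPKM + 0.1) called 0 members, beside 2.43% and 2.23% of all genes, with 4 members at an unadjusted p under 0.05 in each. Ldhb alone was called with the size factors of DESeq2 in edgeR (4.76% of all genes), with 1 transcript per symbol (4.78%), without Rn45s (4.42%), and in the known-gene (3.54%), Ensembl (4.01%) and ENCODE (4.1%) tables.

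**Figure D2:**
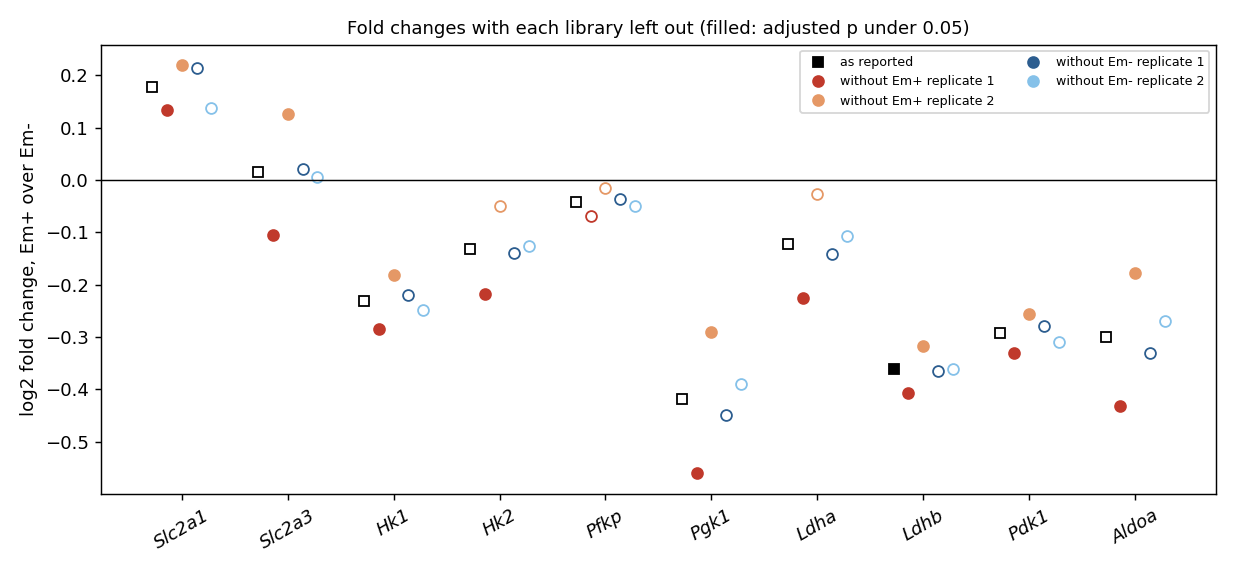
Log2 fold change, Em+ over Em-, of each of the 10 genes in all 4 libraries (squares) and with each library left out in turn (circles), filled where the edgeR adjusted p is under 0.05. Ldhb runs from −0.41 to −0.32, and Slc2a3 crosses 0.

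Levels between genes were compared by FPKM in the RefSeq table, which divides by transcript length. In Em+ cells the order of mean FPKM was Aldoa (387 ± 91.5), Slc2a3 (303 ± 68.5), Ldha (153 ± 32.1), Slc2a1 (93.1 ± 14.5), Hk2 (55.3 ± 10.8), Pfkp (54.2 ± 7.58), Ldhb (49.3 ± 7.78), Pdk1 (37.3 ± 5.62), Pgk1 (28.1 ± 6.86) and Hk1 (17.2 ± 2.83; SD, n = 2 each). The ranges of Aldoa and Slc2a3, of Hk2 and Pfkp, and of Pfkp and Ldhb overlapped there. In Em- cells it was Aldoa (528 ± 15.6), Slc2a3 (333 ± 2.49), Ldha (185 ± 3.16), Slc2a1 (91.7 ± 3.42), Ldhb (70.6 ± 0.156), Hk2 (67.4 ± 0.443), Pfkp (62.2 ± 0.442), Pdk1 (51.0 ± 0.762), Pgk1 (41.6 ± 1.23) and Hk1 (22.5 ± 0.317), with all neighbours separate in range. Ldhb therefore stood below Hk2 and Pfkp in the means of Em+ cells and above both in Em- cells. This order is that of the RefSeq models, and the ranges between libraries do not cover the choice of model. Slc2a3 had 335 FPKM in Em- replicate 1 on its RefSeq transcript of 3959 bases. Its most counted known-gene transcript, of 6493 bases, had 209 FPKM in that library. FPKM is scaled by all reads of a library, and each of the 10 genes was lower in Em+ replicate 2 than in Em+ replicate 1 on that scale.

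Ratios of FPKM within a library do not depend on its total. The Ldha to Ldhb ratio was 3.20 and 2.97 in Em+ cells, against 2.59 and 2.64 in Em- cells, so both Em+ libraries were higher. The Hk2 to Hk1 ratio was 3.28 and 3.13 in Em+ cells and 2.95 and 3.04 in Em- cells. The Slc2a1 to Slc2a3 ratio was 0.294 and 0.325 in Em+ cells and 0.281 and 0.270 in Em- cells. None of the 3 sets overlapped in the RefSeq table, and in CPM 59.4% of all genes tested had groups that did not overlap. The two-sided exact permutation p was 0.33 for each ratio, the smallest that 2 against 2 libraries allow. The Ldha to Ldhb ratio itself depended on the table. In the Ensembl table, which gave Ldha few counts, it lay below 1, at 0.404 and 0.434 in Em+ cells, against 0.353 and 0.325 in Em- cells, so which subunit has the higher level is not settled by these tables. The Ensembl and ENCODE tables held the same count totals for these genes. The log2 differences there were 0.31 and 0.31 for Ldha to Ldhb. They were 0.045 and 0.046 for Hk2 to Hk1 and −0.0056 and −0.0056 for Slc2a1 to Slc2a3. In both of those tables the Em+ and Em- values of the Hk2 to Hk1 and Slc2a1 to Slc2a3 ratios overlapped. Several Hk1 transcripts there held identical counts, so the summed Hk1 value can include the same reads more than once.

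**Figure D3:**
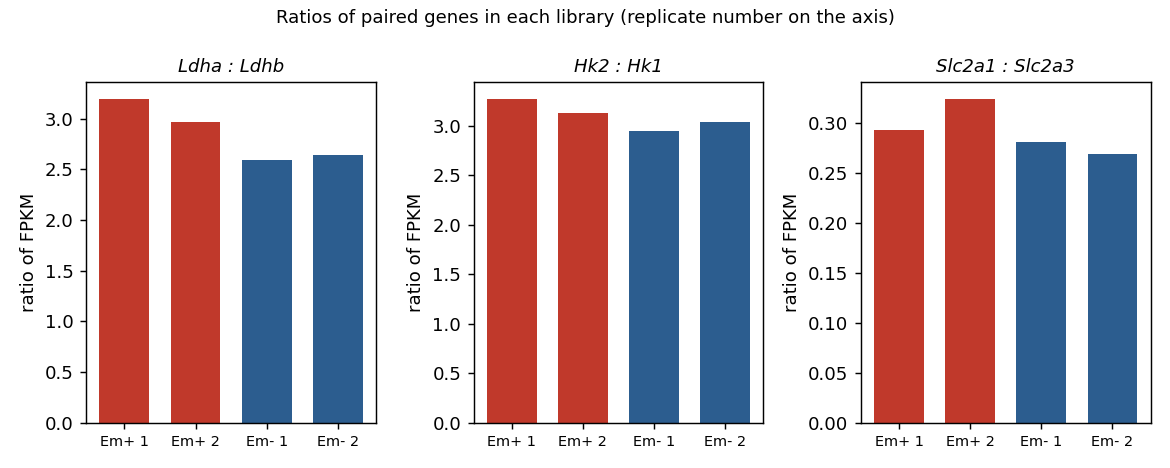
Ratio of the FPKM of paired genes in each library (bars from 0), Em+ libraries left of Em- libraries. The Ldha to Ldhb ratio is 3.20 and 2.97 in Em+ libraries and 2.59 and 2.64 in Em- libraries.

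Sequence shared with other loci touches 3 of the members. A search of the GENCODE vM21 transcripts for stretches of at least 100 bases with at least 95% identity at other loci covered 76.8% of the Ldhb transcript (1 gene, a processed pseudogene), 68.8% of Pgk1 (4 processed pseudogenes) and 55.0% of Ldha (5 processed pseudogenes). It covered none of the other 7 members. In the Ensembl table the pseudogene of Ldhb, Gm5514, held 1584 and 1192 counts in Em+ cells and 2034 and 2187 counts in Em- cells, beside 2661 and 2191 counts for Ldhb itself in Em+ cells and 3354 and 3521 counts in Em- cells. Its log2 fold change of −0.48 (edgeR adjusted p = 0.0283) had the sign of Ldhb in the same table (−0.37, edgeR adjusted p = 0.0331). The Pgk1 pseudogene Pgk1-rs7 held 1925 and 1285 counts in Em+ cells and 2197 and 2468 counts in Em- cells, where Pgk1 held 256 and 247 counts in Em+ cells and 348 and 356 counts in Em- cells. Together Pgk1 and Pgk1-rs7 held 2181 and 1532 counts in Em+ cells and 2545 and 2824 counts in Em- cells. In the RefSeq table Pgk1 alone held 2198 and 1607 counts in Em+ cells and 2670 and 2897 counts in Em- cells. The Ldha pseudogene Gm11814 held 577 and 432 counts in Em+ cells and 587 and 736 counts in Em- cells. Its log2 fold change was −0.26 (edgeR adjusted p = 0.263). In Em+ cells Ldha and Gm11814 together held 1582 and 1313 counts, where Ldha held 11654 and 8949 in the RefSeq table. Ldhb and Gm5514 together held 4245 and 3383 counts in Em+ cells, where Ldhb held 2588 and 2144 in the RefSeq table. The single values of Pgk1, Ldha and Ldhb are therefore less certain than those of the other members.

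Counts per member also depended on the transcript models. The known-gene table gave each member 90.4 to 102% of its RefSeq counts. The Ensembl table gave Ldha 8.96%, Pgk1 12.9%, Pdk1 17.8%, Slc2a1 23.4% and Hk2 66.2% of them. It gave the other 5 members 103 to 147%. Several of its Hk1 transcripts held identical counts, 121 and 105 in Em+ cells and 129 and 142 in Em- cells. A sum per gene there can count the same reads more than once. For Hk1 and Aldoa the RefSeq and known-gene tables put most of the counts beside different transcripts of the same gene, so the start used by these genes is not read from the data here.

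Other genes of glycolysis lay near 0 as well. Of 24 other enzymes listed, 17 were tested and edgeR called 0, with 4 at an unadjusted p under 0.05 (DESeq2 0, limma 0). Their median log2 fold change was −0.10, with 12 below 0. The most distant were Gapdhs, the sperm-type glyceraldehyde phosphate dehydrogenase, at 0.42 (edgeR adjusted p = 0.113) and Pgam2, the muscle phosphoglycerate mutase, at −0.27 (adjusted p = 0.202). Gapdh, Eno1 and Pgam1 averaged 20.8, 0.831 and 1.98 FPKM over the 4 libraries. By the same search 88.0%, 85.6% and 43.1% of their transcripts were shared with other loci. The shares were 65.5% for Pkm, 54.5% for Gpi1 and 19.3% for Tpi1. The levels of these enzymes are therefore uncertain.

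**Figure D4:**
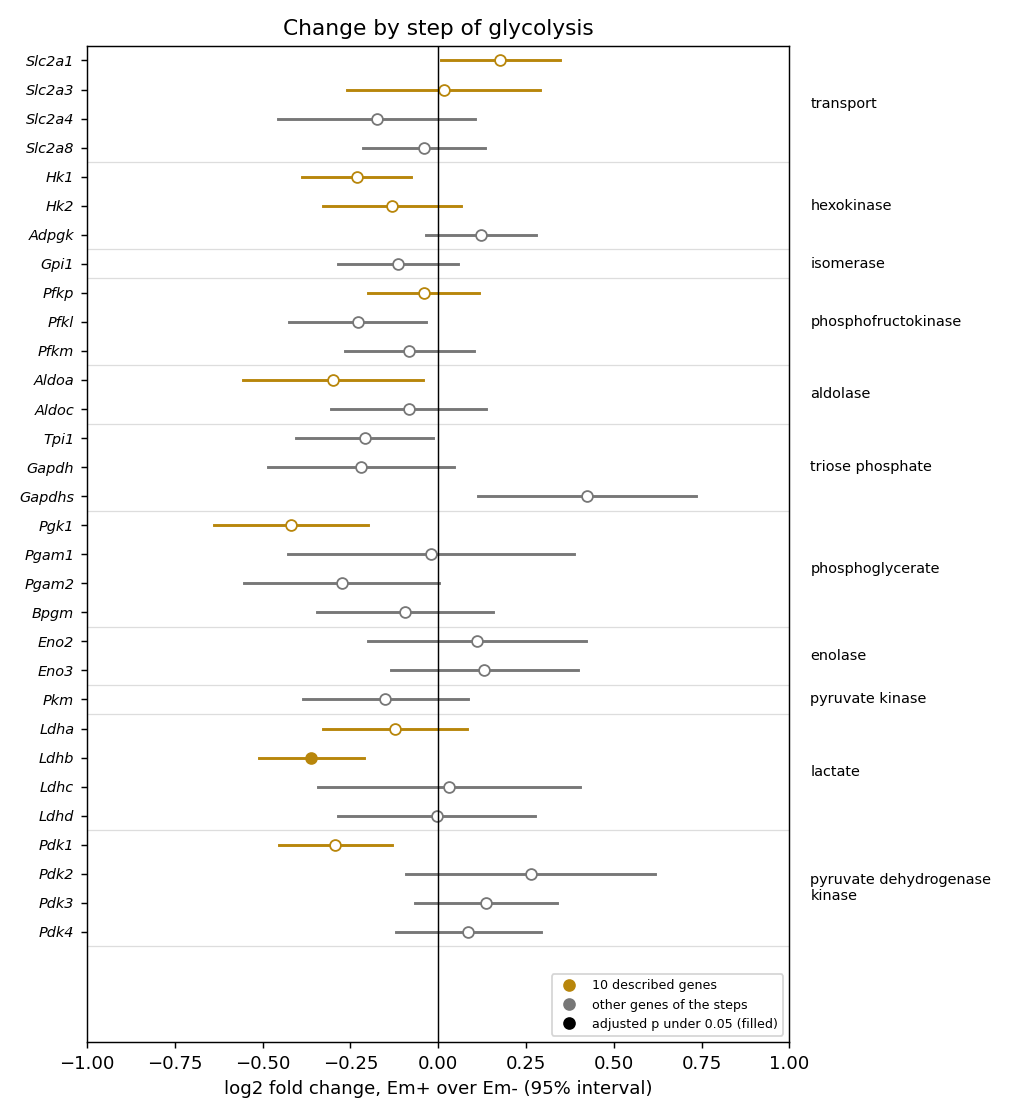
Log2 fold change, Em+ over Em-, with its 95% interval, for tested genes of each glycolytic step, with the 10 described genes in gold and others in grey; a filled point marks an edgeR adjusted p under 0.05. Ldhb at −0.36 is the filled point.

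Genes of the wider pathway were called about as often as all genes tested. Over all 7 lists, 107 genes in all, 84 were tested, and 1 rose and 3 fell. Of all genes tested 4.64% were called, 3.82% higher and 0.822% lower. More called genes fell than rose in the lists, where more rose than fell over all genes, and the calls in the lists were few. No gene of the lists for fructose 2,6-bisphosphate control (5 tested), other hexose transporters (2 tested), lactate and pyruvate fate (18 tested) or the pentose phosphate pathway (8 tested) was called by edgeR, DESeq2 or limma, with 0, 0, 0 and 2 at an unadjusted edgeR p under 0.05. Their most distant members were Fbp2 (0.58) and Pfkfb2 (−0.18) in the first list, Slc2a4 (−0.18) and Slc2a8 (−0.04) in the second, Pdk2 (0.26) and Pdp1, a pyruvate dehydrogenase phosphatase (0.16), in the third, and Pgls (−0.28) and Tkt, transketolase (−0.27), in the fourth.

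The 4 calls lay in side paths and regulators. Gbe1, the glycogen branching enzyme, averaged 8.66 ± 0.993 CPM in the Em+ libraries, against 13.6 ± 0.129 CPM in the Em- libraries (log2 fold change −0.64, edgeR adjusted p = 0.0357). Gnpda1, a glucosamine 6-phosphate deaminase, averaged 45.8 ± 0.782 CPM in the Em+ libraries, against 59.7 ± 1.62 CPM in the Em- libraries (−0.38, adjusted p = 0.0327). These were 2 of 15 tested genes of that list, whose median was 0.03. Mycn, a Myc family transcription factor, fell to 151 ± 5.39 CPM in the Em+ libraries, against 194 ± 7.08 CPM in the Em- libraries (−0.36, edgeR adjusted p = 0.0252). Mlxip, a glucose-sensing transcription factor also called MondoA, rose to 9.41 ± 2.59 CPM in the Em+ libraries, against 4.82 ± 0.181 CPM in the Em- libraries (0.96, edgeR adjusted p = 0.0482), and lay at 0.96 and just outside the threshold with the Rn45s row left out (edgeR adjusted p = 0.0542). These were 2 of 19 tested regulators and hypoxia-response genes, with a median of −0.03, and Hif1a stood at −0.07 (edgeR adjusted p = 0.501). Gnpda1 and Mycn lost their calls without either Em- library, and Gbe1 without Em- replicate 2 and in the known-gene, Ensembl and ENCODE tables (edgeR adjusted p = 0.0531, 0.0618 and 0.0576).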

How the data were processed

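The authors deposited 4 tables of transcripts (RefSeq, known-gene, ENCODE and Ensembl models), with a raw count and an FPKM per library, per the file headers. The submitters' processing notes list Bowtie2 and build mm10 without their roles. The counting program, whether it used strand and how it treated reads that match several places is not given in the sources used here. Libraries were stranded total RNA depleted of ribosomal RNA, per the labels' protocols. In the RefSeq and Ensembl tables every count of Em- replicate 1 is deposited as 0, so they were computed from the deposited FPKM, length and library total (from the known-gene table), adding 0.0005 for truncated FPKM. In the libraries with both columns this gave the exact count for 99.93 to 99.99% of transcripts. The columns are read as H for the high (Em+) and N for the negative (Em-) fraction. Deposited starts count from 0 and are given plus 1.

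Counts were summed per symbol in the RefSeq table. Genes averaging 1 FPKM or more (12050) were tested with edgeR 4.0.16 (R 4.3.3; glmQLFit and glmQLFTest, TMM, two-sided, no covariate, Benjamini-Hochberg, threshold 0.05, common biological coefficient of variation 0.0731), after a check on simulated counts. SE and 95% intervals come from the F statistic. The replicates of a group differed by more than sampling noise (chi-square per degree of freedom 25.1 for Em+ and 3.43 for Em-). Precision rests on 2 libraries per group. DESeq2 1.42.0, limma 3.58.1 and the other tables served as alternatives, and BLAST+ 2.17.0 found shared sequence. All 10 members are named, as are all called genes of the 7 lists and otherwise the 2 most distant tested genes of a list. Pdk3, Pdk4, Hif1a, Gapdh, Eno1, Pgam1, Pkm, Gpi1, Tpi1, Nanog and Thy1 were named after their values were seen. The members and lists were chosen with earlier results of these data known.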

Additional observations from a re-analysis of the deposited data

How the results depend on the processing

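The count of called members moved from 1 to 2 without TMM scaling, to 3 with DESeq2, filterByExpr or no filter, and to 0 with limma on log2(FPKM + 1) or log2(FPKM + 0.1), where 4 and 4 members had an unadjusted p under 0.05. Limma called 293 and 269 genes of all tested and 1 and 0 of the pathway lists, where 13 and 13 had an unadjusted p under 0.05, and the weaker filters gave 1246 (filterByExpr) and 1178 (no filter) genes. The median log2 fold change of all genes was −0.14 and −0.16 on deposited FPKM. Leaving out each library gave 0 to 9 members, 490 to 4992 genes of all tested and 1 to 34 of the lists. A replicate block on the title numbers gave 3 members, 1552 genes (12.9% of all tested) and 7 list genes. Replicates 1 minus 2 correlated at 0.016 between the groups across genes. The labels do not say whether samples of the same number share a culture or sort. That correlation cannot settle it, because Em+ replicate 2 stood apart from the other libraries. Slc2a3 changed sign with limma (−0.15 for both pseudocounts), filterByExpr (−0.023), no filter (−0.042) and without Em+ replicate 1 (−0.11), and was 0.13 without Em+ replicate 2. The log2 ratio of Ldha to Ldhb, Em+ over Em-, was 0.24 and became 0.31 in the Ensembl and 0.31 in the ENCODE table. That of Hk2 to Hk1 (0.10) became 0.045 and 0.046, and that of Slc2a1 to Slc2a3 (0.17) became −0.0056 and −0.0056. The cause was not tested. Over 17 alternatives the log2 fold change of Ldhb was below 0 in 17 and called in 13, Pgk1 was called in 7 and Pdk1 in 6. The alternatives reuse the same libraries, and some tables hold the same counts for a gene, so they are not separate checks. Precision is limited by 2 libraries per group.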
